A study of Mus musculus with 6 samples.

Results

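A set of 10 endothelial genes was followed in messenger RNA from sorted *Pdx1-Cre* lineage cells of mouse embryos, as a check of vascular cells among these cells. The members are *Pecam1*, *Cdh5*, *Esam*, *Emcn*, *Kdr*, *Flt1*, *Tek*, *Tie1*, *Erg* and *Sox18*. They were chosen by name, as the rows of the count table whose Ensembl identifiers map to these symbols, and they are 10 of the 55414 genes listed. Cells were sorted by tdTomato fluorescence from the trunk at E10.5 (embryonic day), in 3 WT and 3 KO libraries. WT cells carried the genotype Pdx1-Cre+, Tdtomato+, miR-302WT, and KO cells the genotype Pdx1-Cre+, Tdtomato+, miR-302KO. Both groups therefore carried the Cre transgene and the reporter, and differed by the loss of the mir-302 cluster of microRNAs, which was deleted in every tissue of the embryo and not in the *Pdx1* lineage alone. The label marks cells in which the *Pdx1* promoter had driven Cre at some earlier time. The trunk was dissociated with trypsin, and the number of embryos behind a library is not given in the sources used here. Nothing in the labels says that libraries came from separate litters, so p-values measure the spread between these libraries, which may be partly technical.

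Endothelial cells line blood vessels and are joined to each other by junction proteins such as VE-cadherin. They respond to vascular endothelial growth factor (VEGF) made by surrounding tissue, through receptor tyrosine kinases, and to angiopoietins, which act on vessel stability. In the embryo, the aortic and vitelline endothelium lies next to the gut tube where the pancreas buds form, and signals from it are known to act on early pancreatic differentiation.

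The libraries held 17352498 to 26634523 counts. In each of them *Pdx1*, the transcription factor whose promoter drives the Cre, was at 73.1 to 107.5 CPM (counts per 1000000). The epithelial adhesion gene *Epcam* was at 356 to 581 CPM. Other progenitor genes differed widely, with *Sox9* at 177.8 to 259.1 CPM, *Ptf1a* at 1.52 to 4.96 CPM and *Nkx6-1* at 0.762 to 4.73 CPM. The liver gene *Afp* was at 101.9 to 1347 CPM. The deleted microRNA genes could not check the genotype, because *Mir302d* had 2 counts in KO replicate 3 and the cluster's genes were otherwise at 0 in WT and KO libraries alike. CPM are relative to a library's total scaled by edgeR's TMM factor. In these libraries 3 counts, the number that a count of 0 still allows, correspond to 0.112 to 0.171 CPM. The complementary DNA was amplified before sequencing, so counting intervals cover counting error only. In bulk samples fewer cells of a type and less RNA per cell cannot be told apart.

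The sequences of the deleted microRNAs and of the sites that match them are shown because KO cells lack this regulator. The mature strands of miR-302b (chr3:127545275-127545297, plus strand, GRCm38.p6) and miR-302d (chr3:127545665-127545687, plus strand), taken from RefSeq, share the seed in capitals, bases 2 to 8.
miR-302b-3p: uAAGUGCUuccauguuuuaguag
miR-302d-3p: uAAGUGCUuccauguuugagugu
Among the longest annotated 3′UTRs of the 10 members in GENCODE M21, a GRCm38 annotation, 2 held a match to this seed. *Pecam1* held a match to the whole seed followed by an A, at base 596 of a 3′UTR of 926 bases, and *Flt1* a match to the seed alone at base 3173 of 3971. The matched bases are in capitals.
*Pecam1* site: caactggagcgAGCACTTAaagcgcacct
*Flt1* site: tttaaccaaccAGCACTTccttcaacgc
A seed match stood in the 3′UTR of 20.6% of the 13768 tested genes with an annotated one, so 2 of 10 members lies near that share. A match is a description of letters and not of binding.

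VEGF signalling is needed for endothelial cells to form, and both of its main receptors are members. *Flt1*, which encodes VEGF receptor 1 and its soluble form that traps the ligand, was the most abundant member per kilobase of transcript. Its 3 WT libraries had 520, 373 and 202 counts (24.5, 20.8 and 9.81 CPM), and its 3 KO libraries had 384, 0 and 387 counts (14.3, 0 and 21.1 CPM). The genotypes overlapped, and KO replicate 2 stood apart: its 0 counts allow up to 0.171 CPM, below the 9.81 CPM of the next lowest library. The difference in *Flt1* did not pass the test, with a log2 fold change of -0.64 ± 1.13 (SE) and an adjusted p of 0.927 in the quasi-likelihood test of edgeR, adjusted by Benjamini-Hochberg over 16353 genes. Fold changes are KO over WT throughout.

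*Kdr* encodes VEGF receptor 2, the main signalling receptor, which is already made by the earliest endothelial precursors. *Kdr* had 6, 22 and 12 counts in the WT libraries (0.283, 1.23 and 0.583 CPM) and 303, 0 and 15 in the KO libraries (11.3, 0 and 0.816 CPM). One library, KO replicate 1, held the high level, with an exact Poisson 95% interval of 10.06 to 12.64 CPM, while the other 5 libraries lay between 0 and 1.23 CPM. The log2 fold change of 2.56 ± 1.50 (adjusted p = 0.646, edgeR) rested on that library and was -0.74 without it (adjusted p = 0.968). *Kdr* and *Flt1* did not keep one ratio to each other. Per kilobase of transcript, *Flt1* was at 74.5, 14.6 and 14.5 times the level of *Kdr* in WT replicates 1, 2 and 3, at 1.09 times in KO replicate 1 and at 22.2 times in KO replicate 3.

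The promoters of the 2 VEGF receptor genes are shown because *Flt1* had the most counts of the members and *Kdr* the largest fold change of the 6 tested, and because *Erg*, another member, encodes an ETS factor of the kind that binds GGAA. Both windows of 300 bases span the start of the gene, lie mostly before it, and come from RefSeq on GRCm38.p6, with GGAA on either strand (TTCC) in capitals.
*Kdr*, chr5:75978406-75978705, minus strand: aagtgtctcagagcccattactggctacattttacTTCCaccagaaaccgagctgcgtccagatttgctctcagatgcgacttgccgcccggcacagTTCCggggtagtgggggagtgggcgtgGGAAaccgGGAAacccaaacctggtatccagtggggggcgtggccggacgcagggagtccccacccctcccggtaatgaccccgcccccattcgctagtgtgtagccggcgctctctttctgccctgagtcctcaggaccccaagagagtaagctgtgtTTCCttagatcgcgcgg
*Flt1*, chr5:147725962-147726261, minus strand: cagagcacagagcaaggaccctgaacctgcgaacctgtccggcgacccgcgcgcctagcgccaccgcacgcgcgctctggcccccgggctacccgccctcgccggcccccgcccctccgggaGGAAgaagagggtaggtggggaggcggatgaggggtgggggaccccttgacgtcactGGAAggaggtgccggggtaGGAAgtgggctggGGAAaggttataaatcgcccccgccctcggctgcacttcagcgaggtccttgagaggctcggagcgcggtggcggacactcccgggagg
*Kdr* held 5 matches and *Flt1* 4. The core is frequent by its length alone, being found in 96.0% of the 32851 promoter windows of the same table with a mean of 3.52 matches. One of the *Kdr* matches was part of the longer CCGGAA, which 14.9% of all promoters held. No match to ACAAAG, a SOX-type sequence searched on both strands, was present in either window, and 18.7% of all promoters held one. The other 4 members with a window in the table were searched too. *Tie1* held 9 GGAA matches, *Emcn* 6 and *Tek* 2, and the 3 windows of *Erg* held 2, 4 and 1. *Tek* held 1 ACAAAG match.

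Angiopoietins act through the next pair of receptors. *Tek* (Tie2), which binds angiopoietins, had 54, 34 and 151 counts in WT and 261, 0 and 34 counts in KO (2.55, 1.90 and 7.33 against 9.73, 0 and 1.85 CPM). *Tie1*, its partner without a known ligand of high affinity, had 11, 11 and 12 counts in WT and 45, 0 and 0 in KO (0.518, 0.615 and 0.583 against 1.68, 0 and 0 CPM). WT libraries of *Tie1* lay close together, and the KO libraries held both its highest and its lowest values. The genotypes overlapped for both genes and neither difference passed edgeR's test. The log2 fold change of *Tek* was -0.0046 ± 1.25 (adjusted p = 0.9995) and that of *Tie1* 0.06 ± 1.30 (adjusted p = 0.994). Without KO replicate 1, both KO libraries left held 0 counts of *Tie1*, which puts it at least 3.42-fold lower than WT if each is set at 3 counts (adjusted p = 0.448, edgeR). The log2 fold change of *Tek* ran from -2.08 to 0.85 as each library in turn was left out, the lowest value being without KO replicate 1.

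*Pecam1* (CD31), an adhesion molecule of endothelial junctions that platelets and white blood cells also carry, had counts in every library. It had 10, 42 and 7 counts in WT (0.471, 2.35 and 0.340 CPM) and 45, 25 and 27 in KO (1.68, 1.42 and 1.47 CPM). Its KO libraries lay close together inside the range of the WT libraries, and it was the one member besides *Esam* with more than 3 counts in KO replicate 2. Its log2 fold change was 0.55 ± 0.71 (adjusted p = 0.886, edgeR). Leaving out WT replicate 2, its highest library, gave 1.92 with an adjusted p of 0.166, the smallest of any member under the 15 fits made.

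*Esam*, another endothelial cell adhesion molecule, also had counts in every library, with 78, 47 and 27 in WT (3.68, 2.63 and 1.31 CPM) and 86, 4 and 27 in KO (3.21, 0.228 and 1.47 CPM). KO replicate 2 was again the lowest library, and the genotypes overlapped (log2 fold change -0.61 ± 0.78, adjusted p = 0.886, edgeR). *Cdh5*, which encodes VE-cadherin, the adherens junction cadherin that defines endothelial cells, was close to the floor. It had 4, 1 and 3 counts in WT and 19, 1 and 0 in KO, so that only WT replicate 1 and KO replicate 1 exceeded 3 counts. *Emcn*, a mucin-like surface protein found mostly on capillaries and veins, had 0, 6 and 2 counts in WT and 27, 0 and 0 in KO. Both genes were highest in KO replicate 1, at 0.708 CPM for *Cdh5* and 1.01 CPM for *Emcn*.

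Of the transcription factors, *Erg*, an ETS factor that maintains endothelial identity, had 0 counts in 5 libraries and 5 counts (0.186 CPM) in KO replicate 1. *Sox18*, a SOX factor of vascular and lymphatic development, had 0, 11 and 9 counts in WT (0, 0.615 and 0.437 CPM) and 7, 1 and 1 in KO (0.261, 0.0570 and 0.0544 CPM). *Sox18* thus was the member whose higher libraries were WT replicates 2 and 3, and its genotypes overlapped too. *Cdh5*, *Emcn*, *Erg* and *Sox18* had too few counts to pass the filter on low counts and were not tested in the comparison of genotypes. Fitted with no filter, they had unadjusted p-values of 0.430, 0.395, 0.128 and 0.273 by edgeR's quasi-likelihood test.

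**Figure D1:**
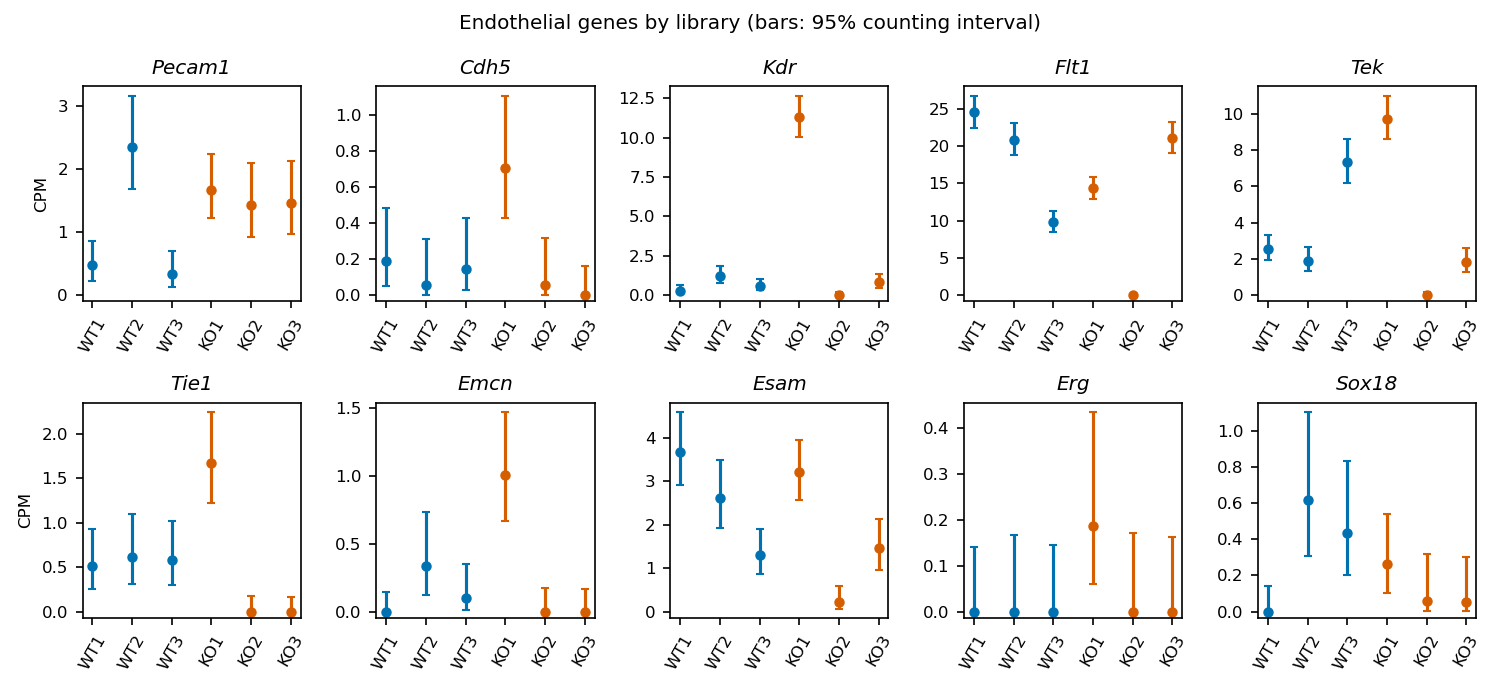
Level of each of the 10 endothelial genes in each library, in CPM on a linear axis of its own, with WT and KO libraries side by side and bars for the exact Poisson 95% interval, or from 0 up to 3 counts where a library had none. Bars cover counting error only. *Kdr*, *Tek*, *Tie1*, *Emcn*, *Cdh5* and *Erg* are highest in KO replicate 1, and *Flt1* reaches 0 in KO replicate 2 but 9.81 to 24.5 CPM in the other 5 libraries.

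Levels of different genes were compared per kilobase of the longest annotated transcript. As means over the 6 libraries, *Flt1* stood at 2.19 CPM per kilobase, *Esam* at 1.12, *Tek* at 0.836, *Kdr* at 0.400, *Pecam1* at 0.374, *Sox18* at 0.147, *Tie1* at 0.134, *Emcn* at 0.0681, *Cdh5* at 0.0482 and *Erg* at 0.00956. The order was unchanged when the median transcript length was used in place of the longest. All 10 members lay below the median of tested genes, 6.12 CPM per kilobase. *Flt1* reached the 32.0th percentile of the 16312 tested genes with a length, *Esam* the 22.3rd, *Kdr* the 9.08th and *Cdh5* the 0.0674th. Neighbours in this order had overlapping ranges over the libraries, so the order describes means and not each library. The first member was *Flt1* in WT replicates 1 and 2 and KO replicate 3, *Tek* in WT replicate 3 and KO replicate 1, and *Pecam1* in KO replicate 2.

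The share of *Flt1* in the summed level per kilobase was 55.3, 47.5 and 32.6% in WT and 22.2, 0 and 63.1% in KO. The summed level itself was 6.43, 6.36 and 4.37 CPM per kilobase in WT and 9.36, 0.586 and 4.84 in KO. For scale, these sums equalled 2.59, 2.66 and 2.50% of the level of *Epcam* per kilobase in the same WT libraries, and 3.89, 0.206 and 2.21% in the KO libraries. Expressed as a share of all counts of a library, the 10 members took 0.0032, 0.00306 and 0.00205% in WT and 0.00444, 0.000179 and 0.00263% in KO. The sum of the members was thus small in 5 libraries and nearly missing in KO replicate 2. This does not hold for each member. *Erg* had counts in KO replicate 1 alone, and *Pecam1* made up 70.7% of the small sum per kilobase in KO replicate 2. The WT sums lay between the extremes, and both the highest and the lowest library were KO.

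**Figure D2:**
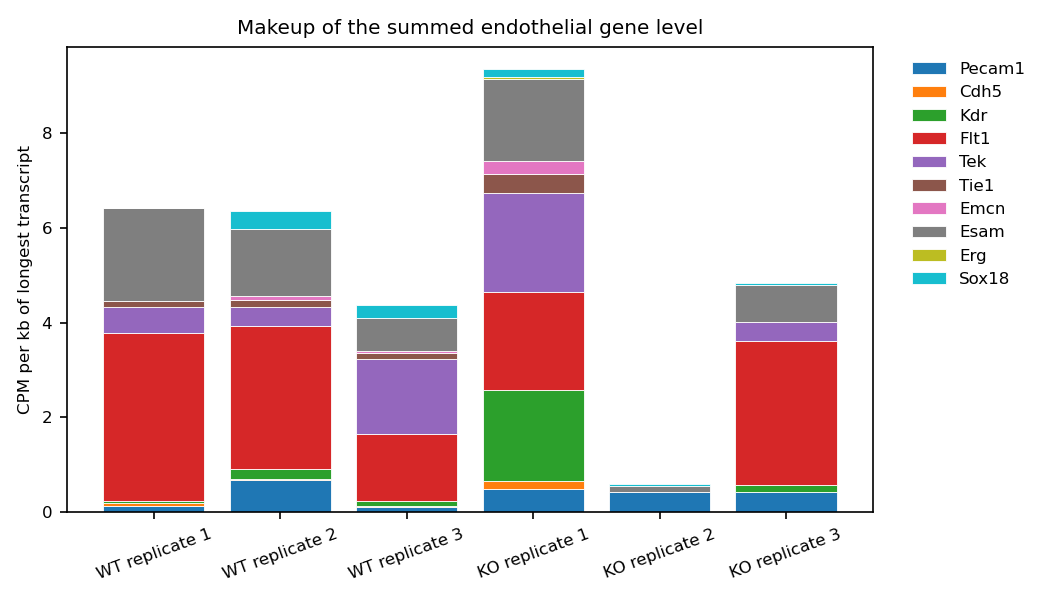
Stacked bars of the 10 members in each library, in CPM per kilobase of the longest transcript, with one colour per gene and the axis starting at 0. *Flt1* makes up 32.6 to 55.3% of the WT bars, the bar of KO replicate 1 is the tallest at 9.36 and holds *Kdr* and *Tek* besides *Flt1*, and that of KO replicate 2 is at 0.586.

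KO replicates 1 and 2 held most of the extremes. Of the 10 members, 6 had their highest CPM in KO replicate 1, where 14.9% of all tested genes did. These were *Kdr*, *Tek* and *Tie1*, which were tested, and *Cdh5*, *Emcn* and *Erg*, which were not. In KO replicate 2, 7 members were at their lowest or tied for it, against 21.8% of all tested genes, and 6 of them (*Kdr*, *Flt1*, *Tek*, *Tie1*, *Emcn* and *Erg*) had 0 counts. The shares over tested genes leave out genes with few counts, such as *Emcn* and *Erg*, which tie at 0 more readily. KO replicate 1 also had the most counts of the libraries (26634523) and KO replicate 2 the fewest (17352498). WT replicate 2, with 17859163 counts, held 547 counts of the members, beside 31 in KO replicate 2. The part of library size was not tested. KO replicate 3 had 0 counts of 4 members, and WT replicates 1, 2 and 3 of 3, 1 and 1. *Flt1* was not highest in KO replicate 1, where it stood at 14.3 CPM beside 24.5 in WT replicate 1. Without *Flt1*, the summed CPM of the other 9 members was 7.68, 9.72 and 10.8 in WT and 29.7, 1.77 and 5.66 in KO. Without *Flt1*, *Tek* and *Esam*, KO replicate 1 held 16.8 CPM of the remaining 7 members and the other 5 libraries 1.46 to 5.20 CPM.

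Marker lists of other cell types were summed in the same way, since the sort could have carried several of them. The list of mesenchyme genes had the same low library. It summed to 503, 183 and 1061 CPM in WT against 1048, 40.3 and 1015 CPM in KO. All 12 of its genes were at or tied for their lowest in KO replicate 2, and 7 of them, *Col1a1* and *Col3a1* included, were at 0 there. *Col1a2* was not missing, and its 612 counts (34.9 CPM) made up most of the sum in that library. The sum of mural cell genes, which mark the cells that wrap vessels, was lowest in KO replicate 2 as well, at 39.1 CPM against 75.1 to 188.2 CPM in the other libraries. Of the 9 genes, 5 were at or tied for their lowest there, and 5 were in WT replicate 2. The sum of liver genes followed with 635 CPM in KO replicate 2 against 771 to 2012 CPM. Of the 8 liver genes 5 were at or tied for their lowest there, while *Ttr* was at its highest, at 323.3 CPM. The part of these other cell types in the low endothelial counts of KO replicate 2 was not tested.

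The list of 13 primitive erythroid genes spanned a far wider range. It summed to 4.05, 6.42 and 16410 CPM in WT against 6616, 5.64 and 358 CPM in KO. WT replicate 1, with 4.05 CPM of erythroid genes, held 32.2 CPM of the endothelial genes, and WT replicate 3, with the most erythroid RNA, held 20.6 CPM of them. Among the KO libraries both lists ran in one order, highest in replicate 1 and lowest in replicate 2. With a hemoglobin covariate in the fit, the log2 fold change of *Kdr* was 0.60, that of *Tek* -1.34, that of *Tie1* -1.02 and the median of the 6 tested members -0.97, and 0 members were called by edgeR. The part of blood cells in the member differences was not tested further. Myeloid cells can carry *Pecam1*, and their genes reached 9.05 CPM in WT replicate 1 and at most 3.48 CPM elsewhere. The 2 most abundant of them were highest elsewhere, *Csf1r* in KO replicate 1 at 2.38 CPM and *C1qa* in KO replicate 2 at 2.11 CPM. The progenitor and gut epithelium list lay between 1712 and 2329 CPM, its highest library being KO replicate 2, and the neural and neural crest list between 23.4 and 49.4 CPM.

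**Figure D3:**
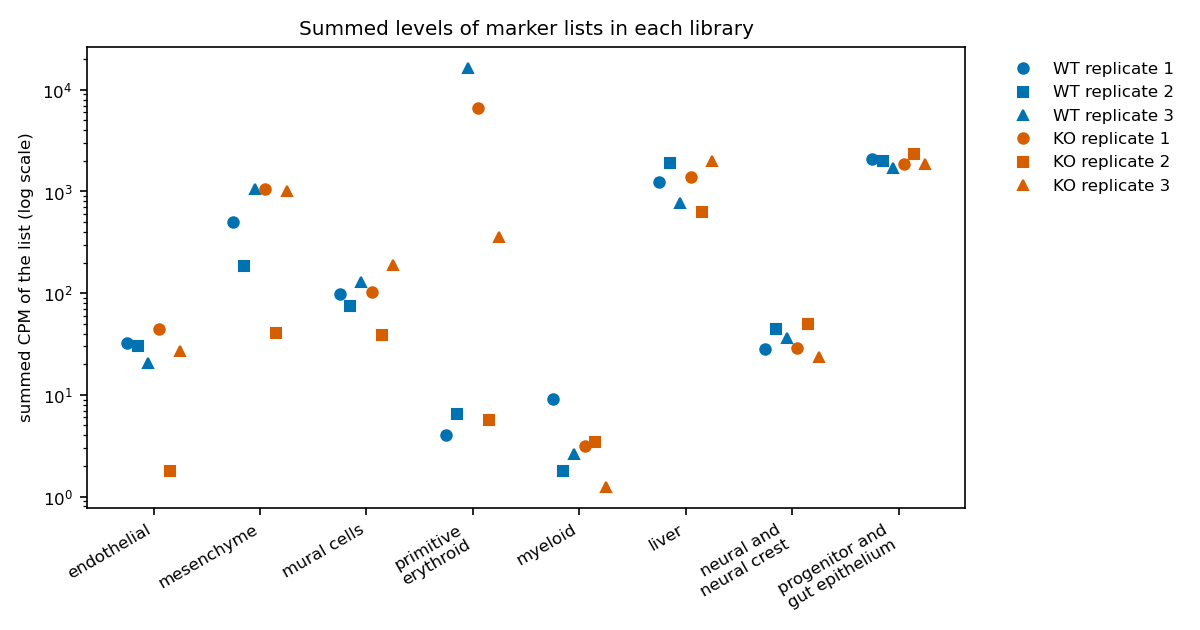
Summed CPM of the endothelial genes and of other marker lists in each library, on a log axis, with one symbol per library. The endothelial sum spans 1.77 to 44.1 CPM with KO replicate 2 lowest, the mesenchyme sum is lowest in the same library at 40.3 CPM, and the progenitor and gut epithelium sum spans only 1712 to 2329 CPM.

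The comparison of KO with WT asked whether the loss of mir-302 changed these genes in the sorted cells. None of the 6 tested members was called by edgeR at an adjusted p under 0.05, where 0% of all tested genes were called (0 of 16353). At an unadjusted p under 0.05 the count was 0 of 6 members, where 10.4% of all tested genes passed. DESeq2 called 0 members and 4.87% of its 14353 genes. It gave an adjusted p to 5 of the 6 members and none to *Tie1*. In 0 of the 6 did all KO libraries lie above or below all WT libraries, which held for 16.4% of all tested genes. Of the 6, 3 were higher and 3 lower in KO, and the median log2 fold change was 0.03, beside 7449 higher, 8904 lower and a median of -0.02 over all tested genes. These 6 are the members with enough counts in some libraries, and they do not stand for all 10.

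The spread between libraries limited what could be seen. Mean levels were 18.4 ± 7.65 CPM in WT against 11.8 ± 10.7 CPM in KO for *Flt1*, 0.698 ± 0.484 and 4.04 ± 6.30 CPM for *Kdr*, and 3.93 ± 2.97 and 3.86 ± 5.17 CPM for *Tek* (SD, n = 3 each). For the summed level of all 10 members they were 27.8 ± 6.25 CPM in WT against 24.2 ± 21.3 CPM in KO. The biological coefficient of variation that edgeR estimated was 1.13 for *Flt1* and *Tek* and 1.22 for *Kdr* and *Tie1*, where the trend for genes of their level was 0.260, 0.380, 0.415 and 0.485. *Pecam1* and *Esam*, at 0.597 and 0.672 beside trends of 0.462 and 0.425, were the least variable. The smallest difference that 3 libraries a group could detect was not computed. Even the log2 fold change of 2.56 for *Kdr* was not called by edgeR.

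**Figure D4:**
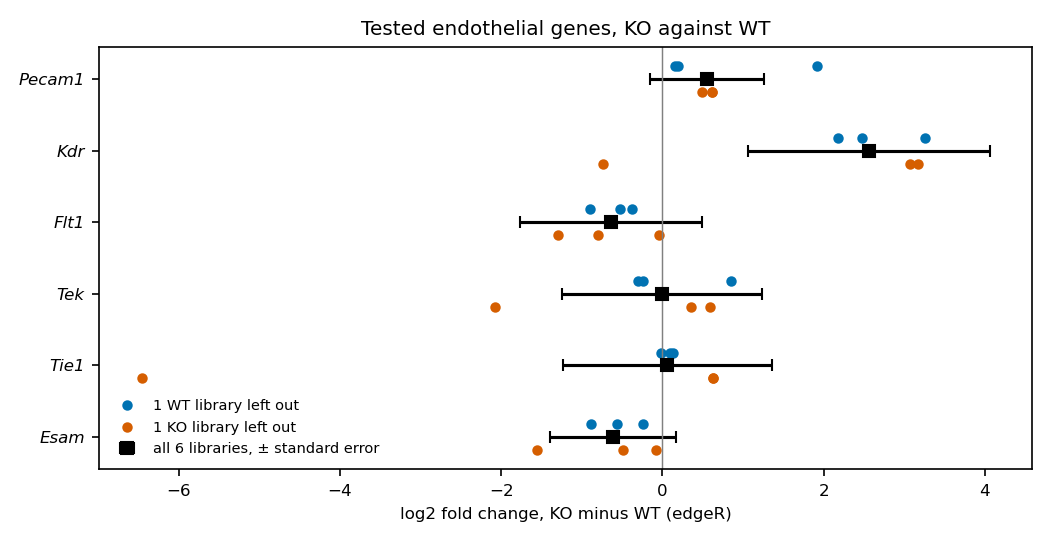
Log2 fold changes (KO minus WT, edgeR) of the 6 tested endothelial genes on the horizontal axis, with bars of 1 standard error around the fit to all 6 libraries, and smaller marks for the fits that left out 1 library each. *Kdr* lies at 2.56 and moves to -0.74 without KO replicate 1, and the bars of the other 5 genes cross 0.

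Genes of the same pathways outside the 10 members were taken from lists of ligands, further receptors, surface and matrix genes, transcription factors, and arterial and venous or lymphatic genes. Together they are 68 genes, of which 51 were tested. edgeR called 0 of them (0% of all tested genes), and DESeq2 called 3, all higher in KO, beside 4.87% of its genes. Some of the 51 were given no adjusted p by DESeq2. Of the 51, 11 had an unadjusted p under 0.05 by edgeR, 8 higher and 3 lower, beside 10.4% of all tested genes. In 7 of the 51 all KO libraries lay above all WT libraries and in 1 all lay below, where 16.4% of all tested genes did one or the other. The 8 and the 7 higher genes include *She*, which passed the filter on low counts through its KO libraries alone. Of the 68, 30 (44.1%) had their highest level in KO replicate 1, beside 14.9% of tested genes, and 30 were at or tied for their lowest in KO replicate 2, beside 21.8% of tested genes. The 68 include genes with too few counts to be tested, and the shares over tested genes do not.

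Vascular ligands were measured in the same libraries, and not all of those listed bind a receptor among the members. Of 11 ligand genes 9 were tested, 7 higher and 2 lower in KO, and the median log2 fold change was 0.42. *Vegfa*, the ligand of *Kdr* and *Flt1* and made by many epithelia, was at 96.3, 118.3 and 89.0 CPM in WT against 141.9, 126.0 and 137.1 CPM in KO. Its genotypes did not overlap, and its log2 fold change was 0.42 ± 0.12, with an adjusted p of 0.220 by edgeR and 0.0490 by DESeq2. *Vegfb*, a ligand of *Flt1*, was at 5.21 ± 1.26 CPM in WT against 10.6 ± 3.16 CPM in KO (SD, n = 3 each), with adjusted p-values of 0.234 by edgeR and 0.0291 by DESeq2. *Angpt1*, a ligand of *Tek*, was at 2.07, 1.45 and 2.09 CPM in WT against 5.81, 0 and 2.39 CPM in KO. It was named for its nearness to the mean member profile, so its likeness to the members came with that choice. *Angpt2*, another angiopoietin gene, named after its values were seen, varied far less. It lay between 12.0 CPM in KO replicate 2 and 18.9 CPM in KO replicate 1.

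Of 19 further receptors 15 were tested, 9 higher and 6 lower in KO. *Calcrl* and *Ramp2*, which together form the adrenomedullin receptor, each had all KO libraries above all WT libraries. *Calcrl* was at 7.43 ± 2.24 CPM in WT against 12.8 ± 2.79 CPM in KO, and *Ramp2* at 23.7 ± 3.90 and 32.6 ± 1.74 CPM (SD, n = 3 each). Their adjusted p-values were 0.335 and 0.321 (edgeR). *Nrp1*, a co-receptor for VEGF and semaphorins, was at 117.9 ± 7.78 CPM in WT against 86.6 ± 22.6 CPM in KO (adjusted p = 0.452, edgeR). These genes had counts in KO replicate 2, where *Kdr* and *Flt1* had none. *Nrp1* was there at 63.0 CPM and *Ramp2* at 32.5 CPM.

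Of 16 surface, junction and matrix genes 10 were tested, 6 higher and 4 lower in KO. *She*, an adaptor with an SH2 domain, had 0, 1 and 0 counts in WT and 17, 15 and 13 counts in KO. The ratio of KO to WT was 42.8, with an exact 95% counting interval of 7.30 to 1728, since WT held 1 count in all. Its adjusted p was 0.132 by edgeR and 0.0488 by edgeR with no filter on low counts, and DESeq2 gave no adjusted p. *She* passed the filter through its KO libraries alone and was named for its small p, so these values are a description and not separate support. *She* did not follow the members, since it had 15 counts in KO replicate 2. *Egfl7*, a secreted vascular factor, lay between 8.93 and 13.8 CPM in all 6 libraries. *Plvap*, a protein of endothelial fenestrae named after its values were seen, had its highest level in KO replicate 1, at 9.06 CPM against 0.141 to 1.29 CPM in the others.

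Of 11 further transcription factors 7 were tested, 5 higher and 2 lower in KO. *Sox17*, which is made both by endoderm and by arterial endothelium, was at 49.2, 88.3 and 18.1 CPM in WT against 64.4, 0.342 and 108.1 CPM in KO, lowest in KO replicate 2 as were 7 of the members. *Mecom* stood at 122.2 ± 42.6 CPM in WT against 180.4 ± 19.5 CPM in KO (SD, n = 3 each; adjusted p = 0.444, edgeR). Of 10 arterial genes 9 were tested, 2 higher and 7 lower in KO, and the median log2 fold change was -0.53. *Efnb2*, the ephrin of arterial endothelium that many epithelia also make, was at 6.88, 10.2 and 6.26 CPM in WT against 30.4, 19.9 and 16.4 CPM in KO, with no overlap (log2 fold change 1.52 ± 0.29; adjusted p = 0.132 by edgeR and 3.5e-05 by DESeq2). *Hey1*, a Notch target, was at 25.7 ± 4.45 CPM in WT against 17.9 ± 2.85 CPM in KO (adjusted p = 0.360, edgeR). All 10 venous and lymphatic genes were tested, 6 higher and 4 lower in KO with a median of 0.04.

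Genes whose profile over the 6 libraries was most like that of the tested members were ranked by the root mean square difference of centred log2 CPM from the mean member profile, over 6 libraries and with no test. *Myl3*, a myosin light chain of heart and slow muscle, was nearest, at 0.432. *Dusp26* (0.455), *Adam12* (0.4998), *Slc14a1* (0.547), *Mark1* (0.566), *Mylk3* (0.582), *Cyp2c68* (0.595), *Cryab* (0.600), *Angpt1* (0.620) and *Zeb2* (0.621) followed. All 10 were at their lowest in KO replicate 2, at 0 to 0.684 CPM. This came with their choice, since the mean member profile is lowest in that library. Among the members, *Esam* was at 0.575 from their own mean profile, *Tie1* at 0.955, *Tek* at 0.981, *Kdr* at 1.02, *Flt1* at 1.66 and *Pecam1* at 1.69. The ranking rested on KO replicate 2, since 0 of the 10 genes were still among the nearest 10 without it, and 3 were without KO replicate 1.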

How the data were processed

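Messenger RNA of *Pdx1-Cre* labelled cells at E10.5 was sequenced in 3 WT and 3 KO libraries made with SMART-seq v4 and Nextera XT, grouped by the genotype and replicate number of the labels. The authors removed low-quality sequence, used STAR to align the rest to GRCm39, and took counts per gene with GenomicAlignments. The deposited values are raw whole-number counts per gene, with totals of 17352498 to 26634523. The gene annotation, strand handling and treatment of shared reads are not given in the sources used here.

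Identifiers without their version were matched to symbols (94.0% matched, all 10 members included). Of the members, only *Cdh5* overlapped another gene, with no exon bases in common. Genotype was fitted on 16353 genes with edgeR 4.0.16 (R 4.3.3), using filterByExpr, TMM, glmQLFit and glmQLFTest with default settings. Adjusted p-values are Benjamini-Hochberg over all of them, and 0.05 was the threshold. DESeq2 1.42.0 was run at its defaults on genes with at least 1 count. The edgeR fit was also run on simulated counts with known changes, and the outcome is not reported here. Profiles used a prior count of 2 and genes with a mean of at least 1 CPM. Tables and plots were made with numpy 2.4.6, pandas 2.3.3, scipy 1.17.1 and matplotlib 3.10.9.

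The members, the other lists and the tests were chosen with earlier results of these data known. Named besides the members were, from each other list, at most the 2 genes with the smallest unadjusted p under 0.05 in each direction and the 2 most abundant, and the 10 with the nearest profile. Not all of these are described. *Plvap*, *Angpt2*, *Col1a1*, *Pdx1*, *Sox9*, *Ptf1a*, *Nkx6-1* and *Mir302d* were named outside this rule, after their values were seen. Coordinates, 3′UTRs and promoters come from GRCm38 references, not from the build of the counts. Libraries were not treated as paired by replicate number, since the labels do not say that the numbers pair them. The correlations of deviations from the group means of same-numbered libraries were -0.211, 0.251 and 0.0779. With 3 libraries a group these values cannot settle whether any pairing exists. The library names of WT replicate 2 and KO replicate 1 differ but share a stem, whose meaning is not given. Alternatives were DESeq2, RLE size factors, other filters, another estimate of the spread, a hemoglobin covariate, a replicate block and leaving out libraries. Leaving out libraries for the summed level, the level per length and the nearest profiles was added after the data were seen.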

Additional observations from a re-analysis of the deposited data

How the results depend on the processing

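No tested endothelial gene was called under any of the 14 alternatives, and of 81 recomputed member fold changes 67 kept their direction and 14 turned. Not all 6 members could be called each time. DESeq2 gave *Tie1* no adjusted p. The filter of at least 1 CPM in 3 libraries kept 4 members, and leaving out WT replicate 3 and KO replicate 1 together kept 5. *Kdr* turned to -0.742 without KO replicate 1 and to -0.834 without WT replicate 3 and KO replicate 1 together, and leaving out 1 library gave -0.742 to 3.26. *Tek*, at -0.0046 in the fit reported, was at 0.00469 with DESeq2, 0.0177 with RLE size factors, 0.0107 with no filter, 0.0158 with at least 1 CPM in 3 libraries and 0.0224 with the other estimate of the spread. It was at -1.17 under the replicate block, -1.34 with a hemoglobin covariate and -1.23 without WT replicate 3 and KO replicate 1 together, and leaving out 1 library gave -2.08 to 0.85. *Kdr* was at 0.596 and the median of the 6 members at -0.97 with a hemoglobin covariate. *Tie1* was at -1.44 under the replicate block and -1.02 with a hemoglobin covariate, and leaving out 1 library gave -6.46 to 0.632, where the size of the lowest value, with both KO libraries left at 0, depends on the fit's prior count and is no bound. The cause was not tested.

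Over all genes, DESeq2 called 699 and the fit with no filter 264, against 0 before, and leaving out 1 library gave 0 to 217, the 217 being without WT replicate 2. Of the further vascular genes, DESeq2 called 3 and the fit with no filter 2, *She* and *Efnb2*. Leaving out 1 library gave 0.155 to 1.92 for *Pecam1*, -1.3 to -0.0431 for *Flt1*, -1.56 to -0.0808 for *Esam* and -1.18 to 0.607 for the median of the 6 (the lowest, without KO replicate 1, also with *Tie1* at its bound). It gave 25.6 to 31.4 CPM for the summed mean in WT, 14.2 to 35.4 CPM in KO, and 31.5 to 44.1% for the mean share of *Flt1*. Of the 10 nearest profiles, 6 were shared with a prior count of 0.5 and 0 to 7 with 1 library left out.

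Whether the numbers 1 to 3 pair libraries is not given, and 2 libraries correlated best with their own number. The replicate block, fitted as an alternative, gave a median of -1.04 for the 6 members, -1.29 for *Flt1* and 0.889 for *Kdr*, and called 0 genes. Levels under 0.112 to 0.171 CPM, which 3 counts equal, cannot be told from 0 in a single library.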
